A study of Mus musculus with 15 samples.

Results

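Smooth muscle cells of the splenic capsule, of the trabeculae that run inwards from it and of the arteries share a contractile machinery, and the genes described here are 10 of its parts: Acta2, Actg2, Myh11, Tagln, Cnn1, Des, Myl9, Lmod1, Mylk and Synpo2. They were chosen by name, with earlier results of these data known. Each was measured by 1 feature of the array whose annotation gave that single gene symbol, so the 10 genes were 10 of 22206 features tested. Spleens were taken from mice on days 1, 3 and 7 after resection of 70% of the liver volume, with 3 mice on each day, and from 6 intact mice without surgery, 1 Clariom S array for each spleen. All were male mice of the C57bl/10 strain. The methods name no genetic change and no agent beside the isoflurane anaesthesia of the operated mice and the CO2 with which mice were killed. Sham-operated mice were not on the arrays, so the loss of liver, the operation and the anaesthesia cannot be told apart. The intact spleens formed sets by their replicate numbers, 1 to 3 and 4 to 6. Days 1 and 7 were set against intact spleens 1 to 3, and day 3 against intact spleens 4 to 6.

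In contracting smooth muscle, myosin filaments slide along thin filaments of smooth muscle actin. Calcium switches the myosin on through calmodulin and a kinase that phosphorylates its regulatory light chain, and intermediate filaments with dense bodies pass the force through the cell. The genes of this machinery are transcribed together under serum response factor and its coactivator myocardin, which act at a short element called the CArG box. In the spleen the capsule and trabeculae carry these cells. They are thin and weakly contractile in rodents compared with dogs or cats, and the walls of splenic arteries hold more of the same cells. In RNA from whole tissue, fewer such cells and less RNA in each cell cannot be told apart, nor can the capsule and trabeculae from the vessel walls. Nor can RNA of the same genes from other cells be told apart.

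The promoters of Acta2 and Myl9 are shown because they were the only windows of the measured members that held the element named above or a close variant of it, and because Acta2 had the widest range of levels over the arrays. RefSeq windows of 250 bases before to 50 bases after the gene start (GRCm38.p6) were found for 7 of the 10 members, all but Actg2, Myh11 and Tagln. The start is that of the RefSeq window, which lay 212 bases inside the outermost annotated start of the gene for Acta2, 56 bases inside it for Myl9 and 39751 bases inside it for Mylk. Both strands were searched for the CArG box, which reads the same on either strand, and for the same element with 1 base of its core other than A or T. Capitals mark the matches. Acta2 lay at chr19:34255324-34255623 on the minus strand and Myl9 at chr2:156775214-156775513 on the plus strand, each printed 5′ to 3′ along its own gene.
Acta2: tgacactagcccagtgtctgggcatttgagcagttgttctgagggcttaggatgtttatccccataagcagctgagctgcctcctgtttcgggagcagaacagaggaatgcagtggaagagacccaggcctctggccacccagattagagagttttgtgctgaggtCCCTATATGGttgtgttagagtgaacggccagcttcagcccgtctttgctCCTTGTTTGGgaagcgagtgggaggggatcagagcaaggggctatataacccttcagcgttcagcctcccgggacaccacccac
Myl9: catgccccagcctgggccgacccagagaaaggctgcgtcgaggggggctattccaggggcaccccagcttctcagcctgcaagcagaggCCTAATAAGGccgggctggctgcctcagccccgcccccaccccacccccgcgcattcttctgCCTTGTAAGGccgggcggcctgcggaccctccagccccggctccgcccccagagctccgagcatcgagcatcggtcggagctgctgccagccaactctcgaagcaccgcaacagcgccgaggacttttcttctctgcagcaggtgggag
In the Acta2 window, CCCTATATGG at -84 to -75 and CCTTGTTTGG at -34 to -25 from the start of the window's transcript each had 1 core base other than A or T. The Myl9 window held an exact box, CCTAATAAGG, at -161 to -152 and a variant with 1 such base, CCTTGTAAGG, at -99 to -90. Of all 32851 promoter windows of this length, 1.63% held an exact box and 9.98% an exact box or such a variant, against 1 and 2 of the 7 member windows. A match in letters is a description and not a site of binding.

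The values are log2 expression levels that the authors obtained by robust multiarray averaging (RMA). They ran up to 19.9, and whether they are plain log2 intensities could not be checked, so differences are given on the deposited scale. The median of all tested features on an array was 4.74 to 4.89. Actg2, Cnn1 and Lmod1 lay near or below that median on many arrays, which is the dim part of the scale. Acta2, the smooth muscle alpha actin, and Tagln, the actin-binding protein transgelin or SM22, lay well above it on every array. B cell genes, which mark the labelled tissue, were well above the array median on all 15 arrays, with list means of 8.66 to 12.90. Genes of skeletal muscle, a tissue that shares Des, stayed low, with list means of 3.99 to 4.44 over the 15 arrays. Its defining genes Acta1 and Myh4 reached no more than 3.98 and 3.68. Pancreatic acinar genes stood apart in intact spleens 1 and 2, whose list means were 13.69 and 11.34, against 4.57 in intact spleen 3. They were 3.60 to 7.13 in the other 12 spleens. Differences from intact spleens 1 to 3 were therefore also computed against intact spleen 3 alone, an alternative chosen after seeing the data.

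Averaged over the 10 genes, the level on day 1 was 6.30, 6.29 and 5.99 in the 3 spleens, and on day 7 it was 6.42, 6.05 and 6.41. In intact spleens 1 to 3 it was 6.54, 6.43 and 6.78. All 3 spleens of day 1 and all 3 of day 7 thus lay below each of these intact spleens, by a small margin. The highest were 6.30 on day 1 and 6.42 on day 7, against 6.43 in the lowest intact spleen of this set. The SD between spleens was 0.18 to 0.21 in these 3 groups, and 0.42 when pooled with the wider day 3 and intact spleens 4 to 6. On day 3 the average was 7.60, 8.44 and 6.79, against 7.42, 6.81 and 7.00 in intact spleens 4 to 6, and these groups overlapped. The spleens of day 3 and intact spleens 4 to 6 were all above the spleens of days 1 and 7 and above intact spleens 1 to 3. The margin over intact spleens 1 to 3 was very small, with lowest values of 6.79 and 6.81 against 6.78 in intact spleen 3. The 5 group means were, from low to high, 6.19 ± 0.18 on day 1, 6.29 ± 0.21 on day 7, 6.58 ± 0.18 in intact spleens 1 to 3, 7.08 ± 0.31 in intact spleens 4 to 6 and 7.61 ± 0.83 on day 3 (SD, n = 3 each). Days 1 and 7 overlapped in this order, as did day 3 and intact spleens 4 to 6.

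**Figure D1:**
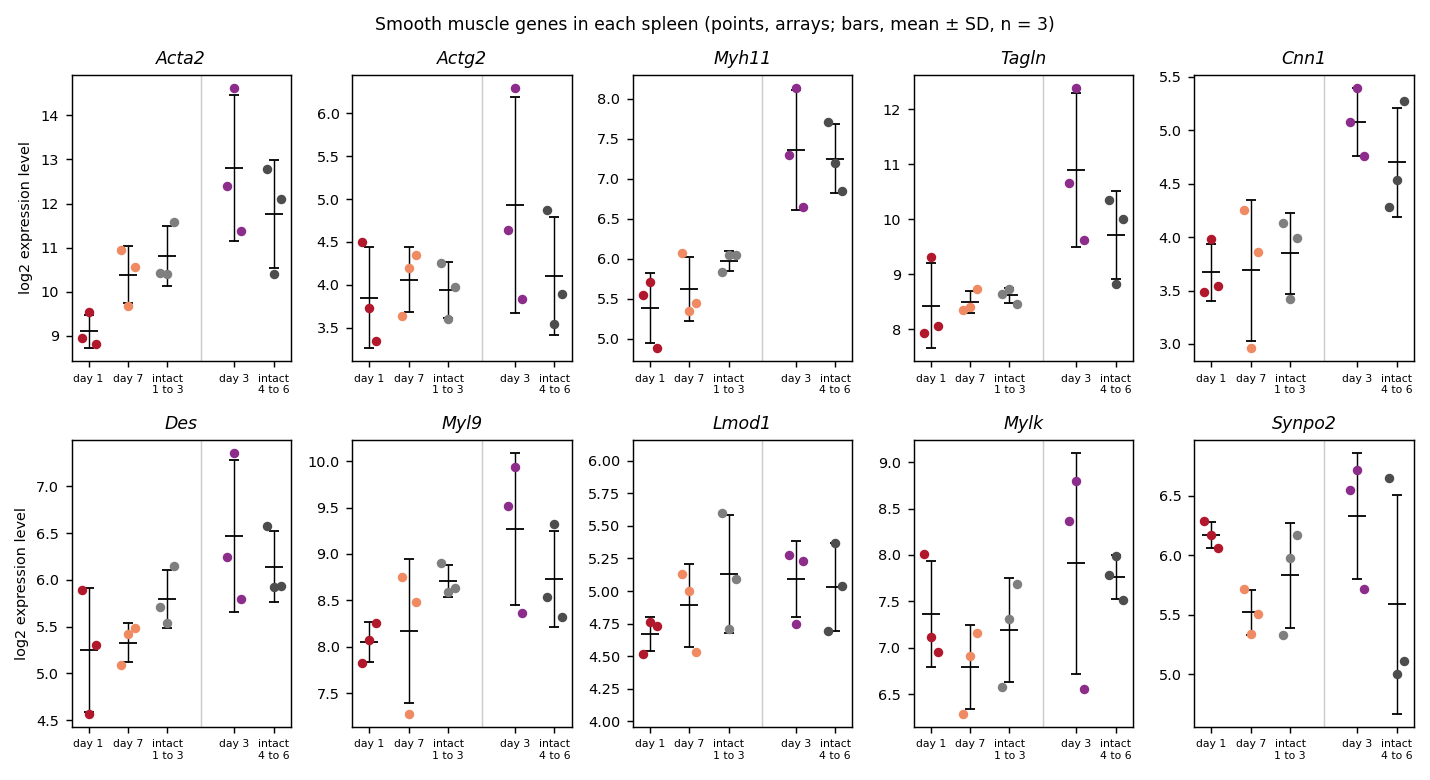
Log2 expression level (vertical axis) of each of the 10 smooth muscle genes in each spleen (points), by group, with the mean and SD of the group (bars, n = 3). Days 1 and 7 stand left of intact spleens 1 to 3, and day 3 left of intact spleens 4 to 6. Acta2, Myh11 and Myl9 on day 1 lie below every intact spleen. The second spleen of day 3 is the highest of all 15 for 9 of the genes, all but Lmod1.

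On day 1 the comparison with intact spleens 1 to 3 asks how the spleen stood 24 h after the liver was resected. The 3 lowest Acta2 levels of the series were on this day. Acta2 was 8.96, 9.53 and 8.81 on day 1, against 10.43, 10.40 and 11.59 in intact spleens 1 to 3. The groups did not overlap, and all 3 spleens of day 1 were below all 6 intact ones. The difference was -1.70 ± 0.71 (log2, SE, n = 3 each), with an interval of -3.23 to -0.18. Its unadjusted p of 0.031 became 0.677 after Benjamini-Hochberg adjustment over all features in limma, so the difference did not pass the test. Of all features, 7.1% had an unadjusted p under 0.05 in this comparison, and of the 10 members this held for Acta2 alone. No member and no other feature passed the adjusted threshold of 0.05 on day 1 (0% of features called, limma), and 1577 features had an unadjusted p under 0.05. Without intact spleen 3, 36 features passed and still no member, with Acta2 at -1.31. Against intact spleen 3 alone, the difference of Acta2 was -2.49 ± 1.05 and the median of the members -0.38. Mylk then turned to -0.33, Des was -0.90, Cnn1 -0.32, Tagln -0.03 and Synpo2 0.01.

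The thick filament genes had smaller differences on day 1. Myh11, the smooth muscle myosin heavy chain, was 5.54, 5.71 and 4.88 on day 1, against 5.83, 6.05 and 6.05 in intact spleens 1 to 3. Myl9, the regulatory light chain on which the kinase acts, was 7.82, 8.07 and 8.26 on day 1, against 8.90, 8.59 and 8.63 in intact spleens 1 to 3. For both genes every spleen of day 1 was below every spleen of its intact set. Every spleen of day 1 was also below intact spleens 4 to 6, which were 6.85 to 7.71 for Myh11 and 8.32 to 9.32 for Myl9. How many of all features lay below every intact spleen was not computed. The differences were -0.60 ± 0.36 for Myh11 and -0.65 ± 0.42 for Myl9 (adjusted p = 0.771 and 0.791, limma). Mylk, the myosin light chain kinase, differed by 0.16 ± 0.49, with 8.01, 7.11 and 6.95 on day 1 and 6.58, 7.31 and 7.69 in intact spleens 1 to 3. Mylk and Myl9 are also expressed by megakaryocytes and platelets, whose genes had list means of 7.60 to 9.59 on day 1 and 8.92 to 8.93 in intact spleens 1 to 3, with 10 of 12 lower on day 1. Their defining genes Itga2b and Itgb3 were well above the array median in both groups, and their part in the levels of Myl9 and Mylk was not tested.

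Beside Acta2, the genes of the thin filament and of the intermediate filaments overlapped between day 1 and intact spleens 1 to 3. Tagln was 7.93, 9.32 and 8.06 on day 1, against 8.64, 8.74 and 8.47 in the intact set, so the second spleen of day 1 was the highest of the 6 and the other two were the lowest. Des, the muscle intermediate filament protein desmin, was 5.89, 4.57 and 5.30 on day 1, against 5.71, 5.54 and 6.15. The differences were -0.18 ± 0.57 for Tagln and -0.55 ± 0.39 for Des. Cnn1, the calponin that restrains actomyosin, differed by -0.18 ± 0.34, Actg2, the gamma actin of enteric smooth muscle, by -0.09 ± 0.52, and Lmod1, an actin nucleator of smooth muscle thin filaments, by -0.47 ± 0.27. Synpo2, the dense body protein synaptopodin 2 or myopodin, was 6.29, 6.17 and 6.06 on day 1 and 5.33, 5.98 and 6.17 in intact spleens 1 to 3, with a difference of 0.35 ± 0.39. In all, 8 of the 10 members had a difference below 0 on day 1, as had 49.6% of all features, and the median of the members was -0.32 against 0.00 over all features. The median was -0.20 without intact spleen 1 and -0.48 without intact spleen 2. The spleens of day 1 lay wholly below intact spleens 1 to 3 for 3 members, Acta2, Myh11 and Myl9, as for 7.14% of all features. Endothelial genes went the other way on day 1, with 12 of 13 higher, none of them past the test, and list means of 6.70 to 7.03 on day 1 and 6.29 to 6.43 in intact spleens 1 to 3. Their part in the member values was not tested.

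Day 3 was set against intact spleens 4 to 6. All 10 members had a difference above 0, as had 49.5% of all features, and their median was 0.46 against a median of all features of 0.00. None passed the test, none had an unadjusted p under 0.05 (9.04% of all features had), and for none did the groups separate (6.78% of all features lay wholly higher on day 3). Acta2 was 12.40, 14.63 and 11.37 on day 3, against 12.78, 10.41 and 12.11 in intact spleens 4 to 6. Tagln was 10.66, 12.39 and 9.63 on day 3, against 10.35 and 8.82 in intact spleens 4 and 5 and about 10 in intact spleen 6. For both genes the second spleen of day 3 was the highest of the 15 and the second spleen of the intact set, spleen 5, the lowest of the 6 compared. The difference was 1.04 ± 0.71 for Acta2, with an interval of -0.49 to 2.56, and 1.17 ± 0.57 for Tagln, with an interval of -0.05 to 2.39 (adjusted p = 0.733 and 0.576, limma).

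Other thin filament genes shared this order in part. Actg2 was 4.64, 6.30 and 3.83 on day 3, against 4.87, 3.54 and 3.89 in intact spleens 4 to 6, and Cnn1 was 5.08, 5.40 and 4.76, against 4.28, 4.53 and 5.27. The second spleen of day 3 was the highest of the 6 for both, while the lowest was intact spleen 5 for Actg2 and intact spleen 4 for Cnn1. Their differences were 0.82 ± 0.52 and 0.38 ± 0.34. Lmod1 was highest of the 6 in intact spleen 5, with 5.28, 4.75 and 5.23 on day 3 and 4.69, 5.37 and 5.04 in intact spleens 4 to 6, a difference of 0.05 ± 0.27.

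Myh11 was 7.30, 8.14 and 6.65 on day 3, against 7.71, 7.20 and 6.85 in intact spleens 4 to 6, and its means of 7.36 and 7.25 differed by 0.11 ± 0.36. Myl9 was 9.52, 9.94 and 8.36 on day 3 and 8.54, 9.32 and 8.32 in the intact set, a difference of 0.55 ± 0.42. The kinase Mylk was 8.37, 8.80 and 6.55 on day 3 and 7.78, 7.99 and 7.51 in the intact set, so that the highest and the lowest of the 6 were both from day 3. Its difference was 0.15 ± 0.49. The megakaryocyte genes were lower on day 3 in 12 of 12 cases, none past the test, with list means of 6.56 to 8.30 on day 3 and 7.31 to 9.73 in intact spleens 4 to 6, and their part in Myl9 and Mylk was not tested. Des was 6.25, 7.36 and 5.80 on day 3, against 6.58, 5.92 and 5.94, and differed by 0.33 ± 0.39. Synpo2 was 6.55, 6.72 and 5.72 on day 3 and 6.65, 5.00 and 5.11 in intact spleens 4 to 6, a difference of 0.74 ± 0.39 with an adjusted p of 0.627 (limma).

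The size of the day 3 differences rested on single spleens. Without the second spleen of day 3 the median difference of the members was 0.17 and those of Acta2 and Tagln were 0.12 and 0.42, while Myh11, Des and Mylk were then below 0. Without the third spleen of day 3 the median was 0.91 and those of Acta2 and Tagln were 1.75 and 1.80. No member passed the test in either case. In the second spleen of day 3 the B cell genes were also at their highest, with a list mean of 12.90, against 11.26 and 10.60 in the other spleens of day 3 and 11.45 to 11.97 in intact spleens 4 to 6. Of 7 B cell genes measured, 3 were higher and 4 lower on day 3 than in intact spleens 4 to 6. The part of such differences between the spleens in the levels of the members was not tested.

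**Figure D2:**
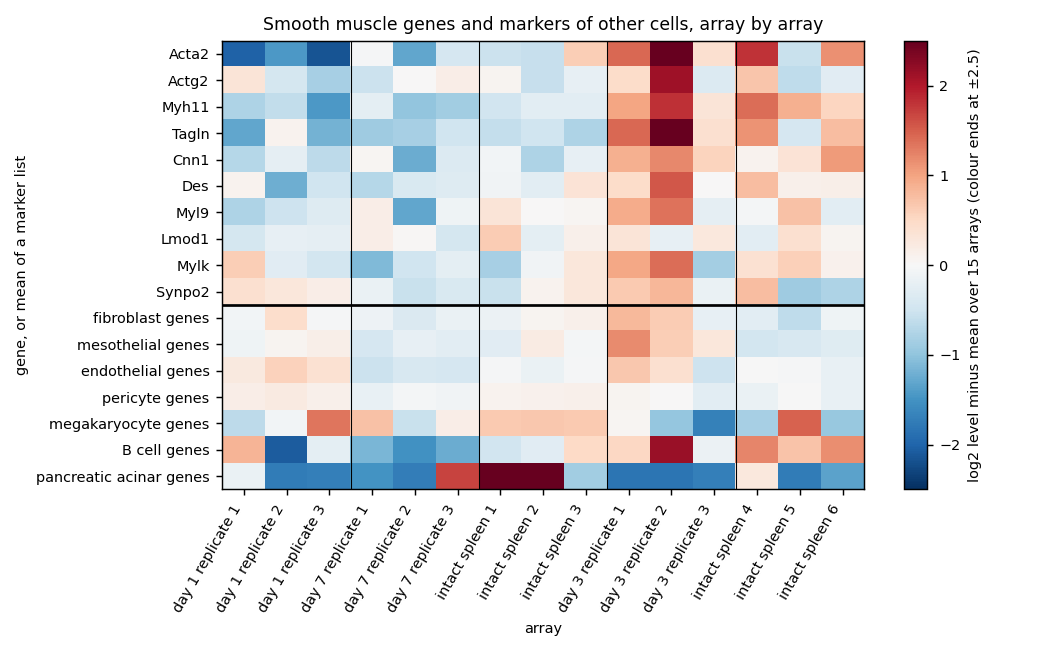
Log2 level minus its mean over the 15 arrays (colour) for the 10 smooth muscle genes (upper rows) and for the mean of each list of markers of other cells (lower rows), in each spleen (columns). The second spleen of day 3 is the darkest red column for the muscle genes except Lmod1, which lies below its own mean there. Intact spleens 1 and 2 stand out for pancreatic acinar genes, with list means of 13.69 and 11.34. Values beyond the ends of the colour bar take its end colours.

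Genes listed for another layer of the capsule passed the test on day 3. The 2 features that passed the test on day 3 (0.00901% of all, limma) were both higher. Both were in the list of mesothelium, the cell layer that covers the capsule. That list was written with earlier results of these data known, and the paper already names 1 of the 2 genes, Prg4, as raised on day 3. Their place in the list is therefore no independent result, and which cells gave the signal was not tested. Prg4, the lubricating proteoglycan lubricin, rose by 4.28 ± 0.50 on the log2 scale, with 9.58, 8.97 and 7.42 on day 3 and 3.99, 4.40 and 4.73 in intact spleens 4 to 6 (adjusted p = 0.011). Gpm6a, a membrane glycoprotein, rose by 2.58 ± 0.35, with 8.63, 8.91 and 8.02 on day 3 and 5.32, 6.34 and 6.17 in intact spleens 4 to 6 (adjusted p = 0.029). The groups did not overlap for either gene. The number of features passing was 0 without intact spleen 4 and without intact spleen 6, and 70, none of them a member, without the third spleen of day 3. Of the 12 mesothelial genes measured, 10 were higher on day 3, with list means of 4.76 to 5.65 on day 3 and 4.01 to 4.17 in intact spleens 4 to 6. The defining markers Msln and Upk3b were 4.75 to 6.65 and 4.62 to 6.71 on day 3, against 3.91 to 4.31 and 4.29 to 4.72 in intact spleens 4 to 6. Of 15 genes of fibroblasts and collagen, 12 were higher on day 3 and none passed the test, with list means of 6.13 to 7.15 on day 3 and 5.70 to 6.22 in intact spleens 4 to 6. Dcn, the collagen-binding proteoglycan decorin, was 14.12, 12.74 and 9.79 on day 3, against 9.83, 8.17 and 9.78 in intact spleens 4 to 6. Its difference of 2.96 was the largest of this list, whose median was 0.42 and whose lowest was -0.46. The third spleen of day 3 was the lowest of its group for Prg4, Gpm6a and Dcn as it was for Acta2, Myh11 and Tagln. This was no trait of capsule genes alone, as it had the lowest list mean of the 3 spleens in 13 of the 15 lists of other genes, those of B cells, endothelium and red pulp macrophages among them. The part of this in the levels was not tested.

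On day 7 the members were set against intact spleens 1 to 3. No member and no other feature passed the test (0% of features called, limma), although 2300 features (10.4%) had an unadjusted p under 0.05, none of them a member. The count passing was 111 without the third spleen of day 7 and 34 without intact spleen 3, again with no member. Acta2 was 10.94, 9.68 and 10.56 on day 7, against 10.43, 10.40 and 11.59 in intact spleens 1 to 3, a difference of -0.41 ± 0.71. Without intact spleen 3 the difference was -0.02, and against intact spleen 3 alone it was -1.19. Its groups overlapped, unlike those of day 1. Des was 5.09, 5.42 and 5.48 on day 7, against 5.71, 5.54 and 6.15, and was the 1 member whose spleens of day 7 were all below the intact set, as for 8.31% of all features. Its difference was -0.47 ± 0.39 (adjusted p = 0.738, limma).

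Myl9 was 8.75, 7.28 and 8.48 on day 7, against 8.90, 8.59 and 8.63 in intact spleens 1 to 3, and its difference of -0.54 ± 0.42 came mostly from the second spleen. Without that spleen it was -0.09. Myh11 was 6.07, 5.34 and 5.45 on day 7, against 5.83, 6.05 and 6.05, a difference of -0.36 ± 0.36. Tagln, with 8.35, 8.41 and 8.73 on day 7, had nearly the same mean as in intact spleens 1 to 3 (8.50 and 8.62). The differences of Cnn1, Lmod1, Mylk and Synpo2 were -0.16 ± 0.34, -0.25 ± 0.27, -0.41 ± 0.49 and -0.30 ± 0.39, and that of Actg2 was 0.12 ± 0.52. In all, 9 of 10 members had a difference below 0, as had 50.2% of all features, and the median of the members was -0.33. The median was -0.15 without the second spleen of day 7. Against intact spleen 3 alone it was -0.45, with Tagln turned to 0.03, Des at -0.82, Mylk at -0.90, Synpo2 at -0.64 and Cnn1 at -0.31. The B cell genes were lower on day 7 too, 7 of 7 of them, with list means of 9.23 to 9.60 on day 7 and 10.27 to 11.24 in intact spleens 1 to 3, and their defining gene Cd79a was 11.04 to 11.73 on day 7 and 12.66 to 13.64 in the intact set. Endothelial genes were lower on day 7 in 13 of 13 cases, with list means of 5.92 to 6.04 on day 7 and 6.29 to 6.43 in intact spleens 1 to 3. Megakaryocyte genes were lower in 11 of 12 cases, with list means of 7.71 to 8.98 on day 7 and 8.92 to 8.93 in intact spleens 1 to 3. Genes of fibroblastic and red pulp reticular cells were lower in 11 of 14 cases, with list means of 7.18 to 7.29 against 7.51 to 8.07. Genes of pericytes were lower in 9 of 11, with list means of 4.36 to 4.50 against 4.63 to 4.67. Against their own intact sets, reticular genes were higher in 7 of 14 cases on both day 1 and day 3. Pericyte genes were higher in 4 of 11 on day 1 and in 6 of 11 on day 3. None of these lists had a gene that passed the test, and their part in the member values was not tested.

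**Figure D3:**
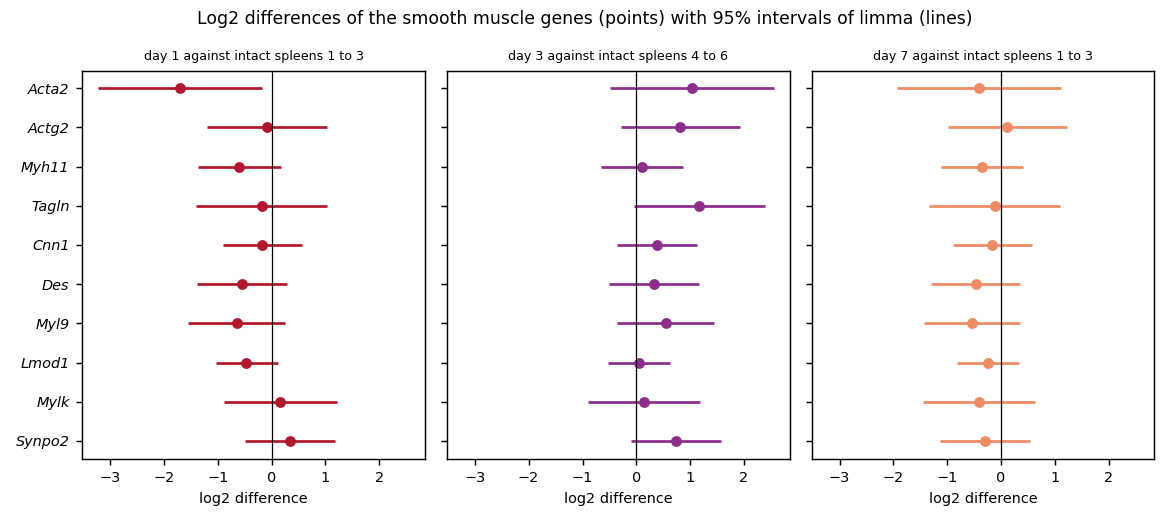
Log2 differences of the 10 smooth muscle genes (points) with 95% intervals (lines, limma) on days 1, 3 and 7 against their set of intact spleens. The day 1 interval of Acta2, from -3.23 to -0.18, is the one that leaves out 0.

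Days 7 and 1 do not need the intact spleens to be compared. Acta2 was higher on day 7 than on day 1 in all 3 spleens of each day, by 1.29 ± 0.71, with an adjusted p of 0.494 in limma. Synpo2 was lower in all, with 5.72, 5.34 and 5.51 on day 7 and 6.29, 6.17 and 6.06 on day 1, a difference of -0.65 ± 0.39 (adjusted p = 0.531). Spleens lay wholly higher on day 7 for 8.05% of all features and wholly lower for 9.68%, and each of these held for 1 member. The differences of Tagln, Cnn1, Des, Myl9, Actg2, Lmod1 and Myh11 were between 0.02 and 0.24, and that of Mylk was -0.57 ± 0.49. Of the 13 features that passed the test between these days (0.0585% of all) none was a member. The count was 0 without the first spleen of day 7 and 314 without the third spleen of day 3, whose spread enters the shared error. In these too no member passed. In all, 8 of 10 members were above 0, as were 51.2% of all features.

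The difference between days was tested as the effect of one day minus the effect of another, each against its own intact set. For day 3 minus day 1, 9 of 10 members were above 0 (49.8% of all features), with a median of 0.79 (0.41 without the second spleen of day 3) and with Acta2 at 2.74 ± 1.01 (unadjusted p = 0.016, adjusted p = 0.940, limma). Myl9 followed at 1.20 ± 0.59 and Tagln at 1.35 ± 0.80. For day 7 minus day 3, all 10 members were below 0 (50.5% of all features), with a median of -0.75 and Acta2 at -1.45 ± 1.01. The median was -0.43 without the second spleen of day 3 and -1.24 without the third. No member and no other feature passed either test (0% of features called), while 1128 and 1297 features had an unadjusted p under 0.05. The 2 tests share the spleens of day 3 and both intact sets.

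The intact sets, neither of which had an operation, also differed from each other in these genes. Myh11 was 7.71, 7.20 and 6.85 in intact spleens 4 to 6, against 5.83, 6.05 and 6.05 in intact spleens 1 to 3, a difference of 1.28 ± 0.36 (unadjusted p = 0.003, adjusted p = 0.151, limma). Tagln, whose levels in intact spleens 4 to 6 are given above, was 8.64, 8.74 and 8.47 in intact spleens 1 to 3, and differed by 1.10 ± 0.57. Cnn1 was 4.28, 4.53 and 5.27, against 4.13, 3.42 and 3.99 in intact spleens 1 to 3, and differed by 0.85 ± 0.34. For these 3 members the sets did not overlap, as for 8.72% of all features in the same direction. Acta2 differed by 0.96 ± 0.71 and Mylk by 0.57 ± 0.49 with overlap, and Myl9 did not separate the sets at all, with means of 8.73 and 8.71. In all, 8 of 10 members were higher in intact spleens 4 to 6 (48.2% of all features), with a median of 0.46, which was 0.29 without intact spleen 4 and 0.11 against intact spleen 3 alone. Of all features 131 passed the test (0.59%), none of them a member, and 54 did without intact spleen 4. The B cell genes were likewise higher in intact spleens 4 to 6, 7 of 7, with list means of 11.45 to 11.97 against 10.27 to 11.24, and the acinar genes lower in 24 of 24. The part of neither list in the member differences was tested, and the sources used here do not say what set the intact spleens apart. Against intact spleen 3 alone, the difference of Myh11 was 1.20 ± 0.54 and that of Acta2 was 0.18 ± 1.05.

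The choice of the intact set changed calls on days 1 and 7. Set against intact spleens 4 to 6 in place of 1 to 3, the day 1 difference of Myh11 was -1.87 and the day 7 difference -1.63, and both passed the test (adjusted p = 0.019 and 0.017, limma). With that set 1.48% of all features passed on day 1 and 5.85% on day 7, and Myh11 was the 1 member among them on each day. For day 3 minus day 1, 4 members passed with the sets exchanged (Acta2, Myh11, Tagln and Cnn1, 2.58% of all features). For day 7 minus day 3, 3 did (Myh11, Tagln and Cnn1, 5.98%). The gap between the intact sets (1.28 for Myh11) enters each exchanged difference by construction, and from both days where effects are subtracted. These calls are therefore not separate evidence on the days. With the sets exchanged the medians of the members were -0.78 on day 1 and -0.89 on day 7. The spleens of day 1 were below both sets for Acta2, Myh11 and Myl9. Mylk turned with the set, with a day 1 difference of 0.16 against intact spleens 1 to 3 and -0.40 against intact spleens 4 to 6.

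**Figure D4:**
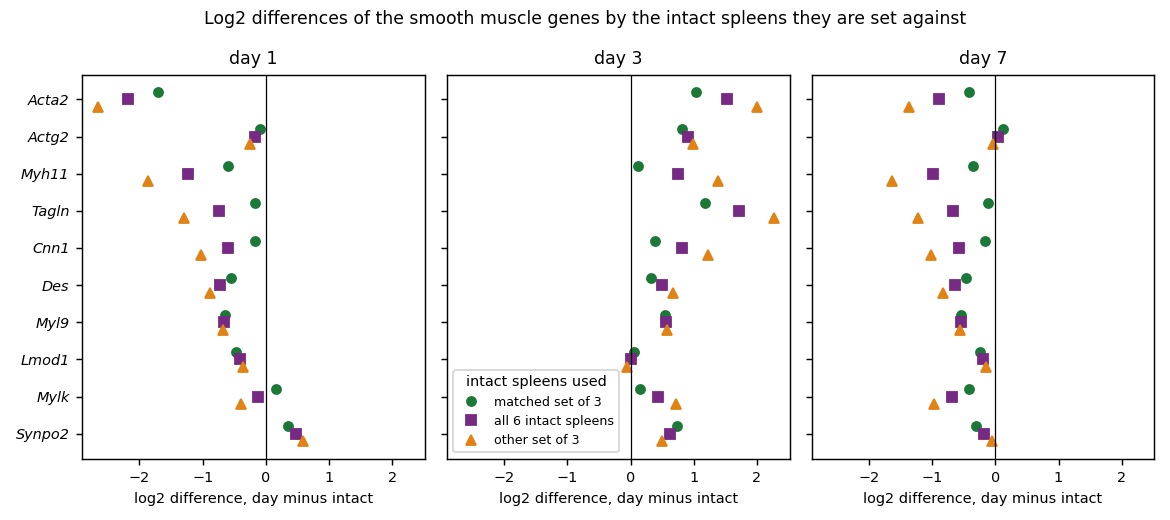
Log2 differences of the 10 smooth muscle genes on days 1, 3 and 7 (panels) against the matched set of 3 intact spleens (circles), all 6 intact spleens (squares) and the other set of 3 (triangles). For Myh11 on day 1 the value moves between -0.60 and -1.87 with the set, while for Myl9 the markers nearly coincide.

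Other genes of the contractile apparatus, its dense bodies and plaques were described from a list of 39. Of 37 measured, 18 were higher and 19 lower on day 1, with a median of -0.02. On day 3, 24 were higher and 13 lower, with a median of 0.23, and on day 7, 10 were higher and 27 lower, with a median of -0.29. None passed the test on any day. Tpm2, the beta tropomyosin of thin filaments, was 6.32, 5.86 and 6.89 on day 1 and 7.05, 5.67 and 5.75 on day 7, against 7.64, 7.87 and 7.18 in intact spleens 1 to 3. Both days, which share these intact spleens, lay wholly below them, by -1.21 ± 0.36 on day 1 and -1.41 ± 0.36 on day 7 (adjusted p = 0.585 and 0.242, limma). Cald1, caldesmon, which binds actin and holds back the myosin, was 8.61, 8.54 and 8.30 on day 7 and 10.07, 9.61 and 9.53 in intact spleens 1 to 3, a difference of -1.25 ± 0.41 (adjusted p = 0.329). Tns1, a tensin of focal adhesions, went the other way on day 1, by 1.56 ± 0.53 (adjusted p = 0.605). Csrp1, a LIM protein of smooth muscle, differed by 1.05 ± 0.42 on day 3 (adjusted p = 0.457), and Pdlim3, a dense body and Z disc protein, by 1.31 ± 0.28 between intact spleens 4 to 6 and 1 to 3 (adjusted p = 0.058).

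The regulators of the programme gave no call either. Of 15 genes of serum response factor and its partners, 7 were higher and 8 lower on day 1, 7 and 8 on day 3, and 3 and 12 on day 7. Srf itself was 6.97, 6.59 and 6.64 on day 7, against 5.75, 5.64 and 6.41 in intact spleens 1 to 3, a difference of 0.80 ± 0.35 (adjusted p = 0.444, limma). Myocd, which encodes myocardin, lay between 2.37 and 3.23 on all 15 arrays, at the dim end of the scale. Mrtfb, a myocardin-related coactivator, differed by -0.80 ± 0.31 on day 7 (adjusted p = 0.387). Of 26 genes of calcium handling, channels and receptors, 11 were higher on day 1, 8 on day 3 and 9 on day 7, and none passed the test. Among them Atp2a2, the calcium pump of the sarcoplasmic reticulum, differed by 0.89 ± 0.26 on day 7 (adjusted p = 0.270) and Ednrb, an endothelin receptor, by 0.98 ± 0.41 on day 1 (adjusted p = 0.678).

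Relatives of the members that are used outside smooth muscle were looked at beside them. Of 20 measured, 12 were lower on day 1, 12 higher on day 3 and 11 lower on day 7, with medians of -0.14, 0.16 and -0.08. Myh10, a non-muscle myosin heavy chain, was 8.10, 7.96 and 8.95 on day 1, against 9.40, 9.98 and 9.38 in intact spleens 1 to 3. Its spleens of day 1 were wholly below, by -1.25 ± 0.61 (adjusted p = 0.714, limma). Acta1, the skeletal actin whose sequence is close to Acta2, was 3.83, 3.93 and 3.98 on day 3, against 3.24, 3.14 and 2.94 in intact spleens 4 to 6 (0.81 ± 0.22, adjusted p = 0.247). Actb was at 19.91 to 19.93 on all arrays, the upper end of the scale, so no difference in it could be read.

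Over the 15 arrays the members varied together to unequal degrees. The Pearson correlation of each member with the mean of the other members was 0.908 for Acta2, 0.903 for Tagln, 0.900 for Myh11 and 0.844 for Des. It was 0.772 for Cnn1, 0.743 for Actg2, 0.727 for Myl9, 0.660 for Mylk and 0.415 for Synpo2. Lmod1 stood out with 0.040. These points share the day, the intact set and the array, and part of the likeness is that of the group means. With the group means removed, Acta2 kept 0.858 and Myh11 0.823, while Cnn1 had 0.314 and Lmod1 -0.520. By rank over the 15 arrays (Spearman), Actg2 had 0.407, Mylk 0.471, Synpo2 0.186 and Lmod1 0.293. The other members had rank correlations of 0.668 to 0.889. Outside the members, the genes whose levels followed the mean of the members most closely were Nod1 (0.939), Rnf144a (0.925), Klf2 (0.918), Stk40 (0.912), Slc7a2 (0.891), Spint1 (0.885), Marcks (0.878), Ccl5 (0.875), Rps18 (0.874) and Frmd8 (0.873). The median correlation over 19495 other genes was -0.005 and the 95th percentile 0.604. With the group means removed, the 10 genes just named had 0.662 (Marcks) to 0.940 (Frmd8). By rank they had 0.668 (Slc7a2) to 0.939 (Nod1). Nod1, which encodes an intracellular sensor of bacterial peptidoglycan, had means of 5.50 on day 1, 7.17 on day 3 and 5.34 on day 7, beside 5.73 in intact spleens 1 to 3 and 6.72 in intact spleens 4 to 6. None of these 10 genes was in the lists of muscle genes.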

How the data were processed

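Spleen RNA of 15 mice was measured on Clariom S mouse arrays. It came from frozen tissue lysed in QIAzol per the labels, while the paper's methods name the RNeasy Plus Mini kit and RNA from cells. The deposited log2 expression values were made by the authors in the Transcriptome Analysis Console 4.0.2 with its default settings and RMA, so background correction, normalization between arrays and probe summary were already in them and could not be varied. The values reach 19.9, and whether they are plain log2 intensities could not be checked, so a fold here is a difference on the deposited scale. Arrays carry no read depth. The number of spleens sets the precision.

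The 6640 control features among 28846 were dropped. All other 22206 entered the tests, dim ones included. Symbols came from the platform annotation, with 19572 features carrying 1 symbol, and each member had 1 feature. One linear model with a mean for each of days 1, 3 and 7, intact spleens 1 to 3 and intact spleens 4 to 6 was fitted in limma 3.58.1 (R 4.3.3) with empirical Bayes moderation, with Benjamini-Hochberg adjustment over all features and calls at an adjusted p under 0.05. The labels call the arrays biological replicates. The labels give no shared litter or batch, so whether spleens of the same replicate number were related is not known, and they were not paired.

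The members and lists were chosen with earlier results of these data known. Named genes were every member and the 10 genes most correlated with the mean of the members. Others were drawn from up to 4 genes with the smallest p in each other list and comparison, and from the 2 defining markers of other cells. Not all of these are printed, and the defining markers Lum, Pecam1 and Cdh5 are among those left out. Alternatives were other intact spleens as controls, the replicate number as a block, fits of the compared arrays only, a trended and robust prior, median centring, further quantile normalization, leaving out the dimmest 25% of features, other thresholds, leaving out each array, and, added after seeing the data, leaving out intact spleens 1 and 2. The fit was tested on simulated data. Promoter windows were RefSeq sequence. The other assays of the study were not used here.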

Additional observations from a re-analysis of the deposited data

How the results depend on the processing

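Of 690 member differences under settings other than leaving out 1 array, 665 kept their direction and side of the threshold, 13 turned direction and 12 became called. Other thresholds, the prior, the dim filter, fits of the compared arrays only and the block leave the difference of group means as it is. Only other control spleens, centring and quantile normalization could turn a direction. No member passed the test when any 1 array was left out, and 1008 of the 1050 member differences so obtained kept their direction while 42 turned. An array outside the compared groups cannot move a difference of group means. Many of the 1050 values were therefore unchanged by construction, and their count is no measure of stability. The causes were not tested beyond what a setting itself changes.

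The intact spleens used changed the calls of members, and the gap between the intact sets enters these differences by construction. With the other set of 3, 328 features passed on day 1, 207 on day 3 and 1298 on day 7, and 573 and 1329 for the day 3 minus day 1 and day 7 minus day 3 effects. With all 6 the counts were 6 on day 3, 207 on day 7, 1 for day 3 minus day 1 and 220 for day 7 minus day 3. With the other set 1 member (Myh11) was called on day 1 and 1 on day 7. For day 3 minus day 1 it called 4 (Acta2, Myh11, Tagln, Cnn1), and for day 7 minus day 3 it called 3 (Myh11, Tagln, Cnn1). The medians of the members with the other set were -0.78 on day 1, -0.89 on day 7, 1.40 for day 3 minus day 1 and -1.59 for day 7 minus day 3, and with all 6 the median of day 3 minus day 1 was 1.22. Mylk on day 1 turned to -0.12 with all 6 and -0.40 with the other set, and for day 3 minus day 1 to 0.55 and 1.12. With the other set Lmod1 on day 3 was -0.05, Actg2 on day 7 was -0.04 and Synpo2 for day 3 minus day 1 was -0.09.

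Without intact spleens 1 and 2, chosen after seeing the data, the lone intact spleen 3 was assumed to vary like the other groups. The features passing were 1 on day 1, 1 on day 3, 1 on day 7, 2 for day 7 against day 1, 12 between the intact sets, and 1 for each difference of effects. Mylk on day 1 was then -0.33 and for day 3 minus day 1 0.48, Tagln on day 7 was 0.03 and Des between the intact sets -0.01.

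The looser rule of a 2-fold change or more, on the deposited log2 scale, and an unadjusted p under 0.05 was met by 460 features on day 1, 451 on day 3, 771 on day 7, 1197 for day 7 against day 1, 888 between the intact sets, and 610 and 771 for the differences of effects. It took in 1 member on day 1 (Acta2), 1 between the intact sets (Myh11) and 1 for day 3 minus day 1 (Acta2). At an adjusted p under 0.01 the counts were 0 on day 3, 1 for day 7 against day 1 and 45 between the intact sets. Fits of the compared arrays only gave 0 on day 3 and 2 for day 7 against day 1. A trended and robust prior gave 59 and median centring 54 for day 7 against day 1. Median centring put Mylk for day 3 minus day 1 at 0.01, and further quantile normalization put Cnn1 for day 7 against day 1 at -0.02.

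With the replicate number as a block, 1 feature passed on day 1 and 0 for day 7 against day 1, and no member did. Same-numbered spleens did not deviate together (r of -0.208 to 0.212), and the labels name no pairing, so the block has no stated basis. No paired analysis was possible for day 3 because intact spleens 4 to 6 share no number with it. Averaging several features of a gene changed nothing to compute, since each member had 1.

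Leaving out each array in turn, the features passing were 0 to 36 on day 1, 0 to 70 on day 3, 0 to 111 on day 7, 0 to 314 for day 7 against day 1, 54 to 206 between the intact sets, 0 to 9 for day 3 minus day 1 and 0 to 16 for day 7 minus day 3. The medians were 0.17 to 0.91 on day 3 and -1.24 to -0.43 for day 7 minus day 3. Ranges that crossed 0 on day 1 were -0.41 to 0.17 for Actg2, -0.63 to 0.07 for Tagln and -0.16 to 0.41 for Mylk. On day 3 they were -0.28 to 0.47 for Myh11, -0.12 to 0.66 for Des, -0.12 to 0.22 for Lmod1 and -0.30 to 0.82 for Mylk. On day 7 they were -0.05 to 0.33 for Actg2 and -0.44 to 0.20 for Cnn1. For day 7 against day 1 the median was -0.03 to 0.15, with -0.05 to 0.53 for Actg2, -0.01 to 0.41 for Myh11, -0.19 to 0.51 for Tagln, -0.27 to 0.38 for Cnn1, -0.27 to 0.39 for Des and -0.18 to 0.56 for Myl9. Between the intact sets they were -0.22 to 0.44 for Actg2, -0.27 to 0.22 for Myl9, -0.32 to 0.13 for Lmod1 and -0.77 to 0.05 for Synpo2, and for day 3 minus day 1 -0.46 to 0.66 for Mylk.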
